A study of Mus musculus with 35 samples.

Results

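KLF4 binding was compared between the third day of reprogramming of mouse fibroblasts and established embryonic stem cells (ESCs) grown in serum. The 4 deposited KLF4 peak lists, 2 of day 3 and 2 of serum ESCs, were merged on chromosomes 1 to 19 and X into 63840 regions. A region was named early-specific when both day 3 libraries and no ESC library had a peak there, ESC-specific in the converse case, and common when all 4 libraries had one. By this rule 7254 regions (11.4% of all merged regions) were early-specific, 5900 (9.24%) were ESC-specific and 7473 (11.7%) were common. The other 43213 regions (67.7%) had a peak in only some libraries of a stage and belong to no class. The counts depend on the lists: without 1 library they reached 18890 early-specific or 16943 ESC-specific regions. With equal list lengths there were 5376 early-specific and 5687 ESC-specific regions, so the order turned.

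The fibroblasts (MEFs) came from mice of mixed C57BL/6 x 129 strain that carry M2rtTA at Rosa26 and, at Col1a1, the OKSM cassette with Pou5f1, Klf4, Sox2 and Myc. Both transgenes were present in every MEF, day 3, day 6 and day 9 sample. The cassette was switched on with 1 µg/ml doxycycline in ESC medium with 1000 U/ml LIF and 50 µg/ml ascorbic acid. Day 3 cells were collected as an unsorted bulk, whereas day 6 and day 9 cells were sorted for the surface antigen SSEA1. The ESCs were of the V6.5 line, kept on irradiated feeder fibroblasts in serum, also with 1000 U/ml LIF. A further ESC group was grown in 2i, an inhibitor of MEK at 1 µM and one of GSK3 at 3 µM, with the same LIF. In the induced cells the antibody can bind KLF4 from the cassette as well as from the endogenous gene, and the ESCs shared their dish with feeders.

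KLF4 is a zinc-finger transcription factor of the Krüppel-like family that binds GC-rich and CACCC-type DNA. It is one of the factors that turn fibroblasts into induced pluripotent stem cells, and in ESCs it takes part with KLF2 and KLF5 in the self-renewal network around OCT4, SOX2, NANOG and ESRRB. In epithelia it also promotes differentiation and junction genes such as Cdh1, while reprogramming fibroblasts lose their mesenchymal programme. Acetylation of histone H3 at lysine 27 (H3K27ac), which was profiled from MEFs to ESCs, marks active promoters and enhancers.

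The KLF4 lists held 34404 and 29493 peaks for day 3 (batches EA-3702 and DG-4040) and 21129 and 34640 for ESCs (EA-2697 and EA-2643). Median peak width was 375 and 238 bp at day 3 against 178 and 214 bp in ESCs, and the share of peaks within 2.5 kb of a gene start was 33.3 and 28.9% against 39.8 and 36.8%. An exact two-sided permutation test of 2 against 2 libraries cannot go below p = 0.333, the value found for width and for this share (both 0.5 after Benjamini-Hochberg adjustment over 6 tests). Each of these 4 libraries is a batch of its own in the labels, so batch and stage cannot be told apart. Read numbers were not part of the lists, so depth is unknown and a missing peak is not a missing signal. Of the pluripotency markers checked, Esrrb and Zfp42 had no H3K27ac peak assigned to them in any MEF, day 3 or day 6 library, and Esrrb had 35 and 37 in the ESC libraries. Pou5f1 had 2 and 1 in MEFs, 1 in each day 3 library and 4 and 4 in ESCs, and Nanog had 0 in MEFs, 0, 3 and 1 on day 3 and 6 and 4 in ESCs. Of the fibroblast markers, Col1a2 had 3 and 1 such peaks in MEFs, 3 in each day 3 library and none later, and Thy1 had 3 and 5 in MEFs and none after day 3. Col1a1 had 7 and 7 in MEFs and 3 and 1 in ESCs, and Twist2 had 18 and 13 in MEFs and still 2 and 1 in the ESC libraries, whose feeders are fibroblasts. The part of feeder chromatin in the ESC lists was not tested.

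The promoters below are shown because a class-defining KLF4 region overlies or adjoins each of them. They are the 250 bases before a RefSeq start of the gene, 5′ to 3′ on the gene's strand, on GRCm38.p6, the build of the peak lists. For Nr5a2, Fbn1 and Tet2 this start lies inside the gene's full extent, as an internal alternative start. Capitals mark every match on either strand of CCNCNCCC, a KLF-type CACCC-box pattern used here as a description and not as a proven site. The first pair lies at ESC-specific regions: Nr5a2, a nuclear receptor that can stand in for OCT4 in reprogramming, at chr1:136953631-136953880 on the minus strand, and Nanog, a homeodomain factor of naive pluripotency, at chr6:122707239-122707488 on the plus strand. The next 3 lie at early-specific regions: the matrix gene Fbn1 (chr2:125506439-125506688, minus), the mesenchymal transcription factor gene Twist1 (chr12:33957421-33957670, plus) and the DNA demethylase gene Tet2 (chr3:133544391-133544640, minus). The last, Klf4 itself (chr4:55532476-55532725, minus), lies at a common region.
Nr5a2: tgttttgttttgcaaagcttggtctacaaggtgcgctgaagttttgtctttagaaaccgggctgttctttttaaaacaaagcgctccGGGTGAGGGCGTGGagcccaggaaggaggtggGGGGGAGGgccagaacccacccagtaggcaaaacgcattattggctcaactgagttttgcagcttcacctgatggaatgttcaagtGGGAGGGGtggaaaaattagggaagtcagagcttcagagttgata
Nanog: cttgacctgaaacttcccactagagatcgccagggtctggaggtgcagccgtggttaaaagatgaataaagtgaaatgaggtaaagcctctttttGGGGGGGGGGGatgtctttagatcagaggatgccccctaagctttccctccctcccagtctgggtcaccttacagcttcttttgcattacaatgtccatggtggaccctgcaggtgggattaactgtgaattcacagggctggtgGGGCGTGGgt
Fbn1: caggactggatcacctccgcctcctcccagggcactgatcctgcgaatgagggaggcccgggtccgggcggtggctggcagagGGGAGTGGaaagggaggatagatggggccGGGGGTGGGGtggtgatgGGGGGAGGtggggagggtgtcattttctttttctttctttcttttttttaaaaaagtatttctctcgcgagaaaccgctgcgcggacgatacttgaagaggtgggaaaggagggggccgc
Twist1: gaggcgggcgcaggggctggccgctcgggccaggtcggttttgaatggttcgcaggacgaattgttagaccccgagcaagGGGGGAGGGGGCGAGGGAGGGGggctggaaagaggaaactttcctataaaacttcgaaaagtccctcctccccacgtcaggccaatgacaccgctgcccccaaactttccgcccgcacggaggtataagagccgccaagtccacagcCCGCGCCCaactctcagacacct
Tet2: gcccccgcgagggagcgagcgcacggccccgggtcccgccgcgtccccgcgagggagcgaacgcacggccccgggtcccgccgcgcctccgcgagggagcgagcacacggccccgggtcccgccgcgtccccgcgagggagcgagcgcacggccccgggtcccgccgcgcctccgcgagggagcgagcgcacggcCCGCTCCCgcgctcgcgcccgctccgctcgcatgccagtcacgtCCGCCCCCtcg
Klf4: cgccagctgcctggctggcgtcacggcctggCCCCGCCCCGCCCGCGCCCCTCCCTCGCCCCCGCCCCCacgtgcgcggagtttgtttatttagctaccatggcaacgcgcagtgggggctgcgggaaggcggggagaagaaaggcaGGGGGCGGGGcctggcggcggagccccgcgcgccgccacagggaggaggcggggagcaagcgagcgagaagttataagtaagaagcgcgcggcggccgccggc
These 250 bases held 4 matches for Nr5a2, 5 for Nanog, 4 for Fbn1, 5 for Twist1, 2 for Tet2 and 9 for Klf4. Promoters of all 3 classes thus carried the pattern in these examples.

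Over all RefSeq promoter windows of 300 bases (250 before to 50 after the start), 49.8% of 32585 held CCNCNCCC on either strand. The share was 63.6% of the 390 windows that overlapped early-specific regions, 79.6% of 494 at ESC-specific regions and 87.4% of 3801 at common regions. CCACACCC, a special case of that pattern, was in 3.57% of all windows and in 3.85, 4.86 and 6.45% of these. TGANTCA, the AP-1 pattern, was in 7.85% of all windows, 8.21% of early-specific, 5.87% of ESC-specific and 3.81% of common windows. Early-specific windows therefore lay closest to the share of all windows for both CCNCNCCC and TGANTCA.

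Common regions lay at gene starts far more often than either stage-specific class. Within 2.5 kb of the start of a protein-coding gene lay 53.5% of common, 18.2% of ESC-specific and 13.0% of early-specific regions, against 26.8% of all merged regions. Shifting the regions by 1 Mb gave 8.39, 7.92 and 6.49% for the same classes. The median distance to a start was 1.18 kb for common, 18.6 kb for ESC-specific and 29.6 kb for early-specific regions, and 36.4% of the early-specific ones lay over 50 kb away. Early-specific regions were wider than ESC-specific ones (median 443 against 271 bp), and 60.5% against 48.3% lay inside a gene. Of common regions 74.1% did, and of all merged regions 59.0%, which is near the early-specific share. With 1 library left out of the rule the gap between the stage-specific classes at gene starts depended on which one. It narrowed to 21.3% early-specific against 21.4% ESC-specific without the ESC library of EA-2643 and to 18.9 against 20.2% without the day 3 library of DG-4040. It widened to 13.2 against 28.1% without the day 3 library of EA-3702 and to 14.0 against 21.5% without the ESC library of EA-2697.

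**Figure D1:**
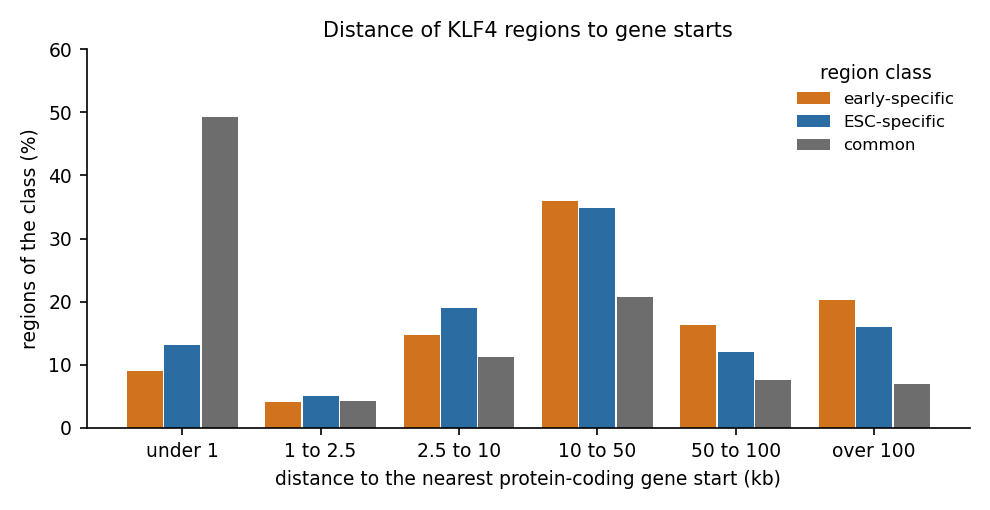
Share of the regions of each class (percent, y axis) by distance to the nearest protein-coding gene start (kb, x axis), with orange bars for early-specific, blue for ESC-specific and grey for common regions. Common regions are concentrated under 1 kb (49.2%), whereas in both stage-specific classes the tallest bar is that for 10 to 50 kb.

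The authors' fold enrichment placed common regions above the stage-specific ones in each of the 4 libraries. Its median at common regions was 6.45 and 3.87 in the day 3 libraries and 4.59 and 3.85 in the ESC libraries. At early-specific regions the medians were 5.17 (EA-3702) and 3.25 (DG-4040), and at ESC-specific regions 3.93 (EA-2697) and 3.12 (EA-2643). Regions found in a single library were lower, from 2.36 to 3.61. The lists end at a -log10 p near 2, and the class limits are soft: 3174 regions missed the early-specific class because 1 ESC library had a peak there, of median -log10 p 5.22, and 2846 missed the ESC-specific class because of 1 day 3 peak, of median 4.97. The members themselves had median -log10 p of 6.28 (early-specific) and 6.11 (ESC-specific), and common regions 9.01. These values chose or followed the choice of the members and are given as a description.

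The strongest early-specific region, by mean rank in both day 3 lists, lay 72.1 kb from Rplp1 (chr9:61840257-61841176), with fold enrichments of 29.8 and 16.8. Among the next were regions inside Emp1, an epithelial membrane protein gene (16.7 and 12.4), Bcl11a, which encodes a zinc-finger repressor (37.3 and 14.6), and Palld, which encodes an actin-bundling protein (37.1 and 8.47). Of the 10 strongest, 10 had KLF4 peaks in both day 6 libraries (36.4% of all early-specific regions did) and 9 in both day 9 libraries (32.3%). A peak in a 2i library was present at 1, that of Emp1, and 91.3% of the class had none. H3K27ac peaks were present in all 3 day 3 libraries at 9 of the 10 and in both ESC libraries at 1, again that of Emp1 (14.4% of all early-specific regions). The strongest ESC-specific region had no protein-coding gene within 100 kb (chr12:12787957-12789016; fold 23.1 and 13.3). In such deserts lay 3 of the 10 strongest and 10.3% of all ESC-specific regions. Of these 10, 9 had KLF4 in both 2i libraries (42.7% of all ESC-specific regions did) and 9 had H3K27ac in both ESC libraries (55.6%). KLF4 was in both day 6 libraries at 2 (8.97% of all), those beside Cic (16.6 and 11.6) and inside Tnrc18 (14.7 and 9.30). Among common regions the first place in all 4 lists went to a region 32.4 kb from Grap (chr11:61619713-61620943), with folds of 31.1 and 43.5 at day 3 and 48.3 and 18.0 in ESCs. A common region inside Src, a tyrosine kinase gene, followed with folds of 31.4, 23.4, 29.1 and 14.0.

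In the KLF4 libraries that did not define the classes, early-specific binding was frequent on days 6 and 9 and rare in 2i. The day 6 libraries are of the same batches as the day 3 libraries, EA-3702 and DG-4040. Both day 9 libraries and a 2i library are also of EA-3702. None of these libraries shares a batch with the defining ESC libraries, and the part of batch in the shares was not tested. Of the early-specific regions 45.4 and 54.7% had a KLF4 peak in the day 6 libraries, 38.4 and 40.3% in the day 9 libraries and 4.66 and 5.94% in the 2i libraries. Of the ESC-specific regions the shares were 15.3 and 20.8%, 28.0 and 30.6%, and 53.2 and 59.7%. Common regions stayed high throughout, from 91.5 and 88.7% on day 6 to 78.2 and 79.7% in 2i. Regions shifted by 1 Mb gave shares between 0.46 and 1.90%. In bulk chromatin, binding in fewer cells and weaker binding per cell cannot be told apart.

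**Figure D2:**
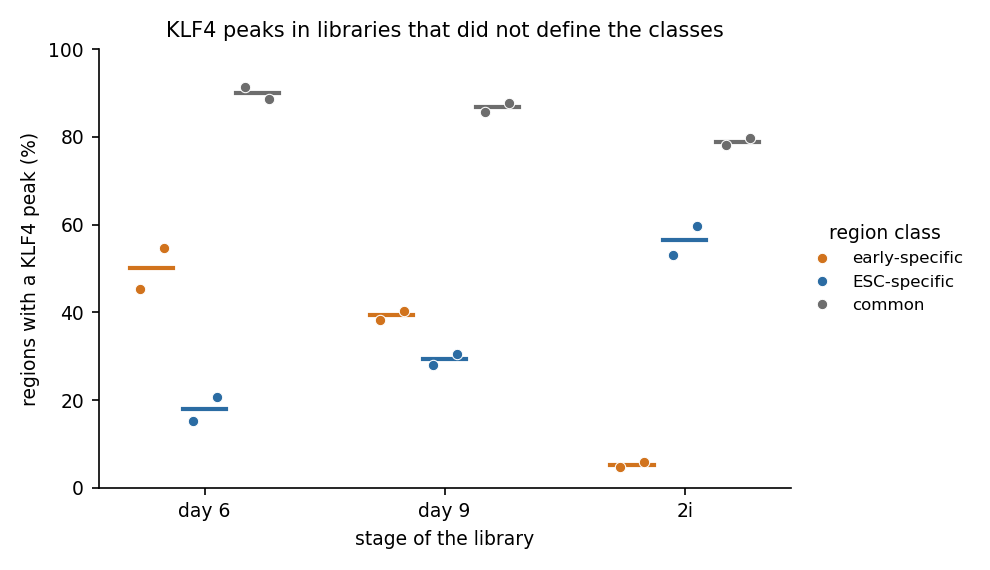
Percent of the regions of each class (y axis) that overlap a KLF4 peak in each library of day 6, day 9 and 2i (x axis); a point is 1 library, a bar the mean of 2, and colour gives the class. Early-specific regions go from 45.4 and 54.7% to 4.66 and 5.94%, ESC-specific ones from 15.3 and 20.8% to 53.2 and 59.7%, with no overlap between the stages in either class.

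The ESC-type share, the part that the ESC-specific class makes of the summed occupancy of both stage-specific classes, was 21.5 and 23.6% on day 6, 37.2 and 38.1% on day 9 and 90.3 and 89.1% in 2i. It rose by 33.6 percentage points per step, with p = 0.0222 in an exact two-sided permutation test over the 6 libraries, the smallest p this design allows, and 0.0667 after adjustment over 6 tests, so it did not pass. Batch EA-3702 holds 1 library of day 6, both of day 9 and 1 of 2i, besides a day 3 library that defined the early class. Within it the values of day 6, day 9 and 2i were 21.5, 37.2, 38.1 and 90.3%. The labels do not say that the libraries of a stage came from separate cultures, so p-values measure only the spread between these samples.

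Single regions took different courses. Of the early-specific regions 1672 (23.0%) had a KLF4 peak in both day 6 and both day 9 libraries, and 2279 (31.4%) had none in any of them. In 2i, 138 (1.90%) had a peak in both libraries and 6623 (91.3%) in neither. Of the ESC-specific regions 3433 (58.2%) had no peak on day 6 or day 9, 418 (7.08%) had none on day 6 and one in both day 9 libraries, and 425 (7.20%) had one in all 4 day 6 and day 9 libraries. In 2i, 2517 ESC-specific regions (42.7%) had a peak in both libraries and 1757 (29.8%) in neither, although 2i and serum cells are both ESCs.

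Rank at the defining stage went with occupancy on days 6 and 9 in the early class, and the other way in 2i. Of the best-ranked 20% of early-specific regions 83.5% had KLF4 on day 6 and 64.6% on day 9 (means of 2 libraries), against 26.4 and 23.4% of the lowest-ranked 20%, whereas in 2i the shares were 2.93 and 7.48%. The best-ranked 20% of ESC-specific regions had KLF4 in 2i at 79.1% and the lowest at 40.4%. Early-specific regions within 2.5 kb of a gene start had KLF4 on day 6 and day 9 at 49.5 and 38.1%, close to the 50.1 and 39.5% of the others. In 2i they had it at 20.0%, against 3.11% of the others, and 60.9% of the 138 found in both 2i libraries were near a start. At ESC-specific regions the corresponding shares were 64.6 and 54.6%, and at common regions 90.8 and 65.3%.

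H3K27ac, read from other libraries than the classes, separated them by stage. Of the early-specific regions 34.1 and 34.3% had an H3K27ac peak in MEFs, 54.9, 45.2 and 39.8% on day 3, 16.5, 13.6 and 29.7% on day 6, 55.7 and 56.8% on day 9 and 17.2 and 17.0% in ESCs. Of the ESC-specific regions the shares were 14.5 and 14.9%, then 10.2, 8.39 and 6.56%, then 4.75, 4.17 and 8.46%, then 32.6 and 34.1%, and 62.4 and 60.2% in ESCs. The H3K27ac lists differ in extent, from 9.21 Mb in a day 6 library to 83.5 Mb in a MEF library (day 3 23.8 to 38.4, day 9 48.9 and 49.5, ESC 66.3 and 62.3 Mb), and the part of list size in the levels between stages was not tested. Stage-specific regions shifted by 1 Mb gave 0.813 to 1.29% on day 6, 1.83 to 2.81% on day 3, 3.12 to 3.52% on day 9, 4.51 to 5.05% in ESCs and 4.97 to 5.50% in MEFs. ESC-specific regions passed early-specific ones in the ESC libraries and in no library of another stage. At common regions acetylation was the most frequent, from 53.9% in a day 6 library to 89.2% in a day 9 library. The difference between ESC-specific and early-specific shares was -38.3 ± 5.86 percentage points on day 3 (SD, n = 3) and 44.2 ± 1.48 in ESCs (SD, n = 2). It differed between the 5 stages with F = 102 and p = 0.000188 in an exact permutation test over 1663200 labelings (0.00113 after adjustment). With labels permuted within the 2 batches only, p was 0.000529 (exact). Within DG-3458 the difference was -19.6 and -19.4 points in MEFs, -36.9 and -33.3 on day 3, -11.8 and -9.42 on day 6, and 45.3 and 43.2 in ESCs. Day 9 acetylation exceeded that of day 6 in all 3 classes, and day 9 exists in batch EA-3702 only.

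**Figure D3:**
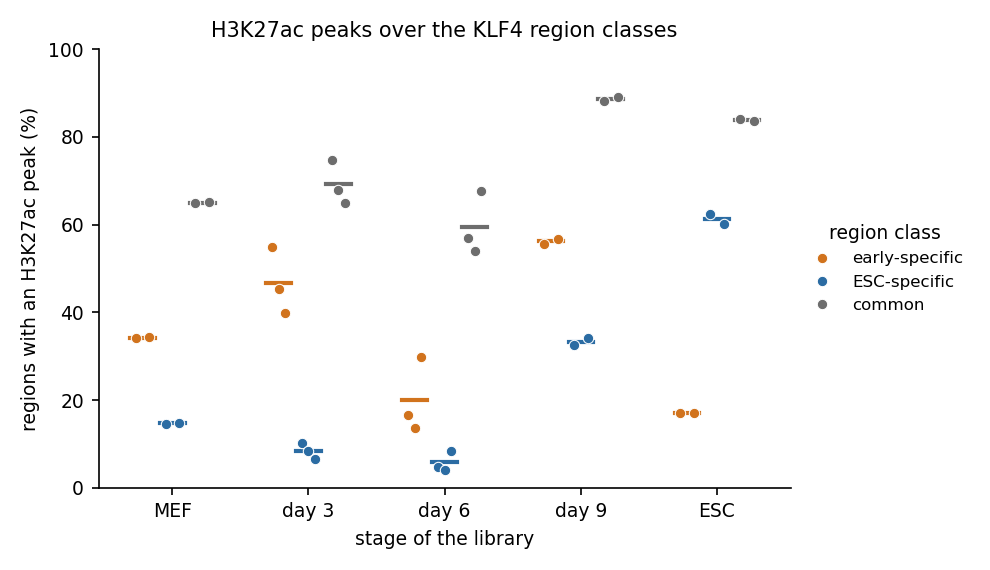
Percent of the regions of each class (y axis) that overlap an H3K27ac peak in each library of MEFs, day 3, day 6, day 9 and ESCs (x axis); a point is 1 library, a bar the stage mean, and colour gives the class. Early-specific regions lie above ESC-specific ones in every library but those of ESCs, where the order turns (17.2 and 17.0% against 62.4 and 60.2%).

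By single regions, 4073 early-specific ones (56.1%) had no H3K27ac peak in any MEF or ESC library, and 936 (12.9%) had none in MEFs but one in all 3 day 3 libraries. A further 1438 (19.8%) were acetylated in both MEF and no ESC library, and 2524 (34.8%) in both day 9 and no ESC library. Of the ESC-specific regions 2579 (43.7%) had the mark in both ESC and no MEF library, and 1428 (24.2%) in no library. Among common regions 4331 (58.0%) had it in both MEF and both ESC libraries.

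Early-specific regions that had KLF4 in all day 6 and day 9 libraries were acetylated more often on day 9 (mean 85.9%) than those with KLF4 in none (30.7%), and less often in MEFs (26.6 against 39.0%). In ESCs both kinds were low, at 17.0 and 14.5%. Those with KLF4 in all of these libraries also had better median ranks in the day 3 lists (22.9 against 55.8%, lower being stronger) and greater median width (535 against 389 bp). The day 9 libraries of KLF4 and of H3K27ac are all of batch EA-3702. The part of rank, width or batch was not tested. The same split of ESC-specific regions gave 75.8 and 18.6% acetylated on day 9. ESC-specific regions with KLF4 in both 2i libraries had H3K27ac in serum ESCs at 68.8%, those with none in 2i at 51.3%. Near gene starts 69.6% of early-specific regions had the mark in MEFs and 54.1% in ESCs, against 28.9 and 11.5% away from starts.

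Each region was given to the nearest of 21631 protein-coding genes within 100 kb. Early-specific regions fell to 4036 genes (18.7%), ESC-specific regions to 3748 (17.3%) and common regions to 5384 (24.9%). Early-specific and no ESC-specific regions were given to 2903 genes, the converse held for 2615, and 1133 genes had both, which is 28.1% of the early and 30.2% of the ESC genes. Genes with both were long, with a median of 90.3 kb, against 52.5 kb for all early, 35.2 kb for all ESC and 17.3 kb for all genes. At least 5 early-specific regions went to 123 genes, and at least 5 ESC-specific regions to 49. No gene was found within 100 kb for 9.90% of early-specific, 10.3% of ESC-specific and 3.43% of common regions.

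Gene lists by role divided between the classes. Of 40 pluripotency regulators 30 (75.0%) had an ESC-specific and 8 (20.0%) an early-specific region, whereas of 35 mesenchymal and matrix genes 4 (11.4%) and 17 (48.6%) did. Of all genes 17.3% had an ESC-specific and 18.7% an early-specific region, so the early-specific share of the pluripotency list was near that of all genes. TGF-beta and BMP pathway genes were on the early side (19 early, 8 ESC of 24), KLF and SP family genes on the ESC side (8 early, 16 ESC of 25), as were epithelial genes (10 and 18 of 34). Counting regions within 2.5 kb of the gene body instead gave 6 early and 8 ESC for the KLF and SP family and 7 and 14 for epithelial genes. The same count gave 5 early and 24 ESC for pluripotency regulators, 14 and 1 for mesenchymal genes and 16 and 4 for the TGF-beta list. The share of all genes under this count is not given, here or for the lists below. Its numbers therefore show only how the list counts depend on the assignment. Cell cycle genes were even (6 and 6 of 20), but by gene body 4 had an early-specific and 2 an ESC-specific region. The median gene length was 10.7 kb in the pluripotency list, 31.8 kb in the mesenchymal list and 65.1 kb in the TGF-beta list, and the part of length in these counts was not tested.

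**Figure D4:**
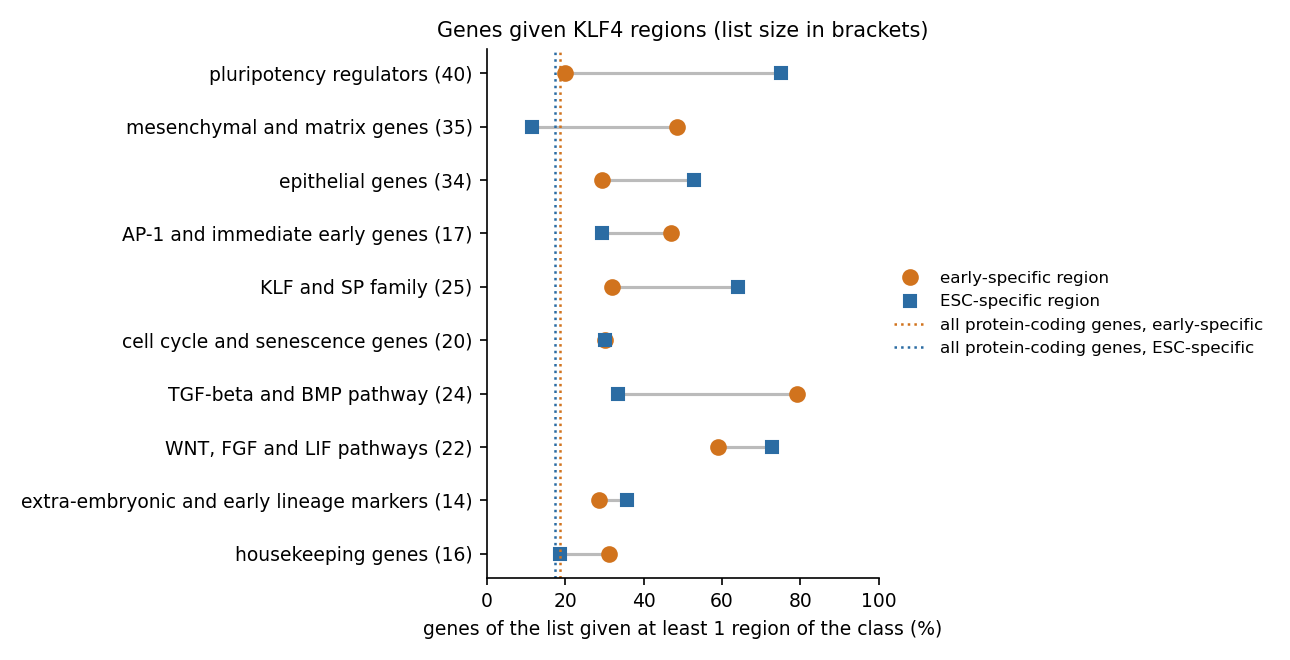
Percent of the genes of each list (x axis; list size in brackets) given at least 1 early-specific (orange circle) or ESC-specific (blue square) region, with dotted lines at the shares of all protein-coding genes (18.7 and 17.3%); the square covers the circle for cell cycle genes, both at 30.0%. Pluripotency regulators reach 75.0% for ESC-specific regions and TGF-beta and BMP genes 79.2% for early-specific ones.

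The 30 pluripotency genes held 79 ESC-specific regions. H3K27ac peaks were present in both ESC libraries at 73 of these (92.4%, against 55.6% of all ESC-specific regions) and in both MEF libraries at 0 (13.3% of all). KLF4 was in both 2i libraries at 47 (59.5% against 42.7%) and in both day 9 libraries at 21 (26.6% against 23.0%). Of the 40 genes, 23 had ESC-specific but no early-specific regions (12.1% of all genes did), and only Lefty1, a Nodal antagonist, had the converse (13.4% of all genes), inside the gene. By nearest-gene assignment Lin28b, Dnmt3l and Trim28 were the 3 given no region of any class, although 1 ESC-specific region given to a neighbour lay within 2.5 kb of Dnmt3l.

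Esrrb, an orphan nuclear receptor of the naive network, had the most ESC-specific regions of the list, 8 within 41.9 kb of its body. Their fold enrichment ran from 3.86 to 8.86 in the ESC library of EA-2697 and from 2.95 to 8.11 in that of EA-2643. KLF4 was in both 2i libraries and H3K27ac in both ESC libraries at all 8, while 1 had KLF4 in both day 6 and 2 in both day 9 libraries. None had H3K27ac in MEFs or on day 3. A single early-specific region, 0.412 kb wide with folds of 5.56 and 2.93, lay upstream of the gene and had no KLF4 on day 6, day 9 or in 2i and no H3K27ac in ESCs.

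Tbx3, a T-box repressor, had 7 ESC-specific regions, with folds up to 9.58 and 10.1, all acetylated in both ESC libraries and 4 bound in both 2i libraries. Nr5a2 had 5, of which 3 lay near a start. The one over the promoter printed above (chr1:136953510-136954281) had folds of 11.1 and 4.62. Otx2, a homeobox gene of the formative state, had 4 and Mycn, a MYC paralogue, had 4, all of them in both 2i libraries and acetylated in both ESC libraries. Sox2 had 3 ESC-specific regions, spread over 91.7 kb around the gene, with folds of 5.78 to 6.93 and 3.99 to 4.79, and all 3 acetylated in both ESC and no MEF library. Prdm14 and Sall4, which both encode zinc-finger regulators of naive cells, had 3 each. At Tet1, a DNA demethylase gene, 5 ESC-specific regions had no KLF4 peak on day 6 or day 9 and no H3K27ac peak in either MEF library. Tbx3, Sox2 and Tet1 were also given 1 early-specific region each.

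At several core genes stage-specific and common regions lay side by side. Nanog had an ESC-specific region at the start (chr6:122707290-122707642; fold 9.61 and 4.57) and a common one upstream (chr6:122702397-122703495) with folds of 9.71 and 4.26 on day 3 and 9.83 and 7.50 in ESCs. Zfp42, which encodes the ESC marker REX1, had a common region at its start (8.27 and 5.06 on day 3, 7.37 and 9.16 in ESCs) besides 2 ESC-specific ones. That common region had no H3K27ac peak in either MEF library and one in both day 9 and both ESC libraries. At Pou5f1 a common region near the gene (chr17:35503791-35504384) had folds of 6.04 and 2.13 on day 3 and 10.5 and 10.4 in ESCs.

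Tet2 carried all 3 classes. Its 3 early-specific regions included one at the promoter printed above (chr3:133544136-133544579; fold 7.74 and 3.14). Of its 5 ESC-specific regions the strongest, inside the gene at chr3:133533227-133533850, had folds of 15.4 and 7.44. All 5 were acetylated in both ESC libraries and none had a peak in either MEF library, whereas 2 of the 3 early-specific ones were acetylated in both MEF libraries. Jarid2, which encodes a cofactor of Polycomb repressive complexes, had 2 early-specific, 2 ESC-specific and 5 common regions.

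In the mesenchymal list 15 of 35 genes had early-specific but no ESC-specific regions (13.4% of all genes did) and 2 the converse (12.1%). The 36 early-specific regions of the whole list had H3K27ac in both MEF libraries at 17 (47.2%, against 31.5% of all early-specific regions) and in both ESC libraries at 2 (5.56% against 14.4%), and KLF4 in both 2i libraries at 0. Fbn1, which encodes the microfibril protein fibrillin, had 5 over 205 kb, with folds of 3.88 to 15.6 (EA-3702) and 2.45 to 8.79 (DG-4040). KLF4 was in both day 6 libraries at 3 of them, in both day 9 libraries at 3 and in 2i at 0. H3K27ac was in both MEF libraries at 3, in all 3 day 3 libraries at 4 and in ESCs at 0.

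**Figure D5:**
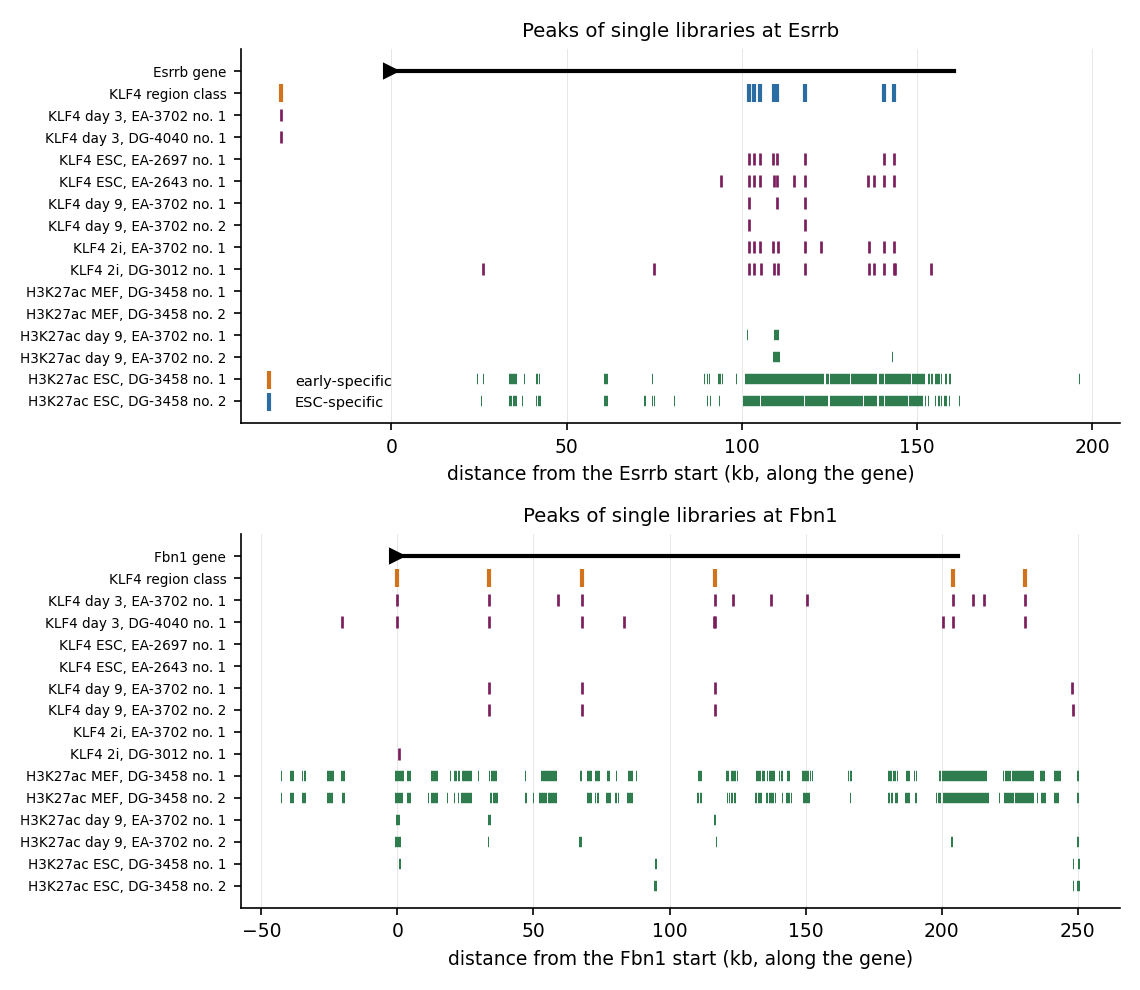
Peaks of single libraries (1 row each, with batch and number) at Esrrb and Fbn1 against the distance from the gene start along the gene (kb, x axis); the upper rows give the gene and the class of its KLF4 regions, ticks mark KLF4 peak midpoints and green bars the extent of H3K27ac peaks. At Esrrb the KLF4 peaks of ESCs and 2i gather with ESC acetylation in the distal part of the gene, and at Fbn1 no KLF4 peak of either serum ESC library is present, while a further early-specific region beyond the gene end is not counted among its 5.

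Runx2, a regulator of osteoblasts, had 5 early-specific regions and Cd44, the hyaluronan receptor gene, had 4, none with a 2i peak and none acetylated in ESCs. Runx1, a haematopoietic and mesenchymal regulator, had 3. The collagen genes Col1a2, Col5a2 and Col6a1 had 2 each, and both Col1a2 regions were acetylated in both MEF and all day 3 libraries and in no ESC library. Zeb1 and Zeb2, repressors of Cdh1, had 2 and 1, and Prrx1, a limb mesenchyme homeobox gene, had 2. The early-specific region at the Twist1 promoter (folds 3.25 and 3.46) differed from these, with H3K27ac in both MEF, all 3 day 3, both day 9 and both ESC libraries. Other members of the list went the other way or to neither side. Snai2 and Tgfbi had 1 ESC-specific and no early-specific region each, and Snai1 and Runx2 had 1 ESC-specific region besides early-specific ones. Col1a1, Fn1, Vim, Thbs1 and Mmp2 had common regions only. At Thy1, Col3a1, Col5a1, Postn, Twist2, Acta2, Tagln, Cnn1, Lox, Pdgfra and Pdgfrb no region of any class was found, so 11 of the 35 genes, common fibroblast markers among them, were outside the comparison.

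Among 34 epithelial genes 11 had ESC-specific but no early-specific regions (12.1% of all genes did), 3 the converse (13.4%) and 7 both (5.24%). Cdh1, which encodes E-cadherin, had 5 ESC-specific regions with folds of 2.95 to 4.80 and 2.02 to 3.59, and none was bound in both libraries of day 6 or of day 9. It also had 3 common regions, with folds of 6.35 to 13.9 and 2.40 to 5.32 on day 3, bound in every day 6 and day 9 library and acetylated in both day 9 and both ESC libraries but in no MEF library. These 3 are thus sites with KLF4 on day 3 and no H3K27ac peak in MEFs. The tight junction gene Cldn4 had an ESC-specific region over its start and another beyond its end, with a common region inside the gene and an early-specific one 13.6 kb away (folds 6.24 and 4.79). Cldn3 had 1 ESC-specific region 15.3 kb away and a common region over its start. At Grhl2, an epithelial transcription factor gene, 2 early-specific, 2 ESC-specific and 1 common region were found, none acetylated in ESCs.

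TGF-beta and BMP ligands both signal through SMAD proteins, TGF-beta as a known promoter of the mesenchymal state and BMP as a known aid to the change to epithelial cells early in reprogramming. Early-specific regions were given to 19 genes of the joint list. Of the 24 genes 13 had early-specific but no ESC-specific regions (13.4% of all genes did) and 2 the converse (12.1%), with 42 early-specific regions in all, 23 of them (54.8%, against 31.5% of all early-specific regions) acetylated in both MEF libraries. Among ligands Tgfb2 had 2 early-specific regions and no other. Bmp7 had 3 early-specific and 3 ESC-specific regions, none acetylated in MEFs. Among receptors Tgfbr2 had 2 (folds of 6.54 to 13.4 in EA-3702 and 6.52 to 7.99 in DG-4040), Tgfbr1 had 2 besides 1 ESC-specific region, and the co-receptor gene Tgfbr3 had 5. Among the signal-transducing SMADs, Smad3 and Smad4 had 3 each and no ESC-specific region, and Smad2 had 1 ESC-specific and no early-specific region.

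The inhibitory SMADs had regions of all 3 classes. Smad6 had 5 early-specific regions, all acetylated in both MEF and all 3 day 3 libraries, with 2 ESC-specific and 2 common ones. Smad7 had 3 early-specific and 4 ESC-specific regions, and none of the early-specific ones had KLF4 on day 6 or day 9. The targets Id1, Id2 and Id3, inhibitors of differentiation, had 1, 3 and 2 early-specific regions besides 3, 3 and 1 common ones, and Id2 also had 1 ESC-specific region. When any region within 2.5 kb of a gene body was counted instead, 16 of the 24 genes had an early-specific and 4 an ESC-specific region.

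Of 22 WNT, FGF and LIF pathway genes 10 had both stage-specific classes (5.24% of all genes did), 6 ESC-specific without early-specific regions (12.1%) and 3 the converse (13.4%). In all, 13 (59.1%, against 18.7% of all genes) were given early-specific and 16 (72.7% against 17.3%) ESC-specific regions. Within 2.5 kb of the gene body the order of the counts turned, with 11 and 9 genes and no share of all genes beside them. Tcf7l2, a WNT effector, had 9 early-specific regions, 6 acetylated in both MEF libraries and none in an ESC library, and 1 ESC-specific region. Its paralogue Tcf7l1, a repressor of pluripotency genes in ESCs, had 4 early-specific, 1 ESC-specific and 3 common regions. The FGF receptor gene Fgfr1 had 3 early-specific regions, and Spry4, a feedback inhibitor of receptor kinases, had 3 with a strong common region at its start (22.2 and 12.3 on day 3, 10.4 and 8.05 in ESCs). Etv4, an ETS factor downstream of FGF, had 3 ESC-specific regions and no other. For LIF signalling, the receptor gene Lifr had 2 early-specific, 3 ESC-specific and 2 common regions, the feedback inhibitor gene Socs3 had 1, 2 and 3, and Stat3 had a common region at its start only.

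KLF4 also bound around its own family, with ESC-specific regions given to 16 of 25 genes (64.0%, against 17.3% of all genes), early-specific to 8 (32.0% against 18.7%) and common to 19 (76.0% against 24.9%). Klf4 itself had 2 of each class: its ESC-specific regions had folds of 5.50 to 8.54 and 6.38 to 6.91 and were acetylated in both ESC libraries, and the common region over its start is at chr4:55532100-55533395. Klf9 had 4 ESC-specific regions, all bound in both 2i libraries and acetylated in both ESC libraries, with folds up to 13.6 and 8.62. Klf6 and Klf7 leaned the other way with 4 and 5 early-specific regions, and all 4 of Klf6 were acetylated in both MEF libraries. Klf2 and Klf5, which share functions with Klf4 in ESCs, had 1 ESC-specific region each, with 1 and 2 common regions. Within 2.5 kb of the gene body 8 of the 25 genes had an ESC-specific and 6 an early-specific region. These counts are nearly even and have no share of all genes beside them. Near a start lay 2 of the 28 ESC-specific regions given to the list.

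AP-1 and immediate early genes had common regions at 13 of 17 (76.5%, against 24.9% of all genes and 43.8% of housekeeping genes), early-specific at 8 (47.1% against 18.7%) and ESC-specific at 5 (29.4% against 17.3%). Fosl2, an AP-1 subunit gene, had 3 early-specific regions with folds up to 21.0 and 4.87, all 3 acetylated in both MEF and all day 3 libraries. Of the 13 early-specific regions of the list 10 (76.9%, against 31.5% of all) had H3K27ac in both MEF libraries. Under the count within 2.5 kb of the gene body, early-specific regions were at 3 and ESC-specific regions at 2 of the 17 genes.

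The remaining lists had small or even counts. Of 20 cell cycle and senescence genes 16 (80.0%) had common regions, against 24.9% of all genes and 43.8% of housekeeping genes. The senescence-associated inhibitor gene Cdkn2b had 2 early-specific regions, both acetylated in both MEF libraries and in no ESC library, and no ESC-specific one. Cdk1 had 3 ESC-specific regions, and Rb1 had 3 early-specific regions and an ESC-specific one. Each of these genes also had a common region over its start. Of 14 extra-embryonic and early lineage markers 4 had early-specific and 5 had ESC-specific regions, and of 16 housekeeping genes 5 and 3. Of all genes 18.7% had an early-specific and 17.3% an ESC-specific region. Within 2.5 kb of the gene body the counts were 0 and 3 for the lineage markers and 4 and 1 for housekeeping genes. The housekeeping shares (31.3 and 18.8%) are a further measure beside which the other lists can be read. The early-specific shares of epithelial (29.4%), KLF (32.0%) and cell cycle genes (30.0%) are close to the first of them. This measure rests on 16 genes with a median length of 6.64 kb, and its ESC-specific count was 1 by gene body.

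Over all genes, the most early-specific regions went to Rad51b, a recombination gene of which 12 were found, followed by Ptprm, Foxp1 and Aopep with 11 each and Slit3 and Cdh13 with 10 each. These genes are long, from 361 kb (Aopep) to 1185 kb (Cdh13), against a median of 17.3 kb for all genes. The part of length in this order was not tested. Foxp1, a forkhead repressor gene, had KLF4 at 9 of its 11 in both day 6 and at 9 in both day 9 libraries. Lama4, which encodes a laminin chain, had 9 early-specific regions within 58.8 kb, 8 of them acetylated in all 3 day 3 and 8 in both day 9 libraries, and none in both ESC libraries. The most ESC-specific regions went to Gas8 with 19, Dlgap1 with 9 and Esrrb, Igsf21 and Grik3 with 8 each. The 8 regions of the glutamate receptor gene Grik3 were all acetylated in both ESC libraries, whereas none of the 8 of Igsf21 was, with fold enrichments for Igsf21 of 3.17 to 7.38 and 2.52 to 5.75. Akap12, a scaffold protein gene, had 7 ESC-specific, 3 early-specific and 7 common regions.

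The cassette carries copies of Pou5f1, Klf4, Sox2 and Myc, so that peaks over these gene bodies in induced cells can include transgene sequence. Peaks over the Pou5f1 body numbered 3 and 3 in the day 3 libraries and 1 and 2 in the ESC libraries, those over Klf4 4 and 2 against 3 and 3, over Sox2 1 and 2 against 0 and 1, and over Myc 4 and 4 against 2 and 4. On day 6 and day 9 they were between 0 and 2 per library for each of these genes. The part of the transgene in the early-specific region inside Klf4 (chr4:55528081-55528630) was not tested.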

How the data were processed

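KLF4 and H3K27ac were measured by single-end ChIP-seq. Per the submitters' processing notes cutadapt 1.8.1, Bowtie2 2.2.5, deepTools 2.3.6 and MACS2 2.1.1 were used with mm10. Peaks were deposited as 1 list per library, with no read counts: the authors' fold enrichment over background, -log10 of the p-value and q-value, and a score within 1 of the whole part of 10 times the -log10 p-value. The lists end at a -log10 p near 2. The 10 KLF4 and 12 H3K27ac lists were used here, and the 13 input libraries of the labels were not used here.

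The 4 defining KLF4 lists were merged on chromosomes 1 to 19 and X where intervals shared at least 1 bp. A class region counted as occupied in another library when a peak shared at least 1 bp with it. Starts came from the RefSeq promoter table (17274 of 21631 protein-coding genes) and otherwise from both ends of the gene, with a window of 2.5 kb, and regions were given to the nearest gene body within 100 kb. Tests were exact permutations over libraries with Benjamini-Hochberg adjustment over 6 tests and a threshold of 0.05; the permutation code was tested on simulated data (Python 3.11.15, numpy 2.4.6, pandas 2.3.3). Named genes are members of 10 gene lists, the 10 genes with most regions of a class and the genes at the 10 strongest regions by mean rank. An item of the lists is not reported here by name. The members and lists were chosen with earlier results of these data known. Alternatives were peak thresholds, the overlap, fixed peak widths, the window, each library left out and gene assignment by body. Adapter trimming, alignment and calling preceded these lists, so a weak signal under the caller's limit counts as no peak.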

Additional observations from a re-analysis of the deposited data

Results flagged for a closer look

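Between day 9 and ESCs the H3K27ac difference changed sign in every library. The share of ESC-specific regions with a peak minus that of early-specific regions was -22.9 percentage points on day 9 (mean of 2 libraries) and 44.2 in ESCs (mean of 2). The day 9 libraries are of batch EA-3702 and the ESC libraries of DG-3458, so batch and stage cannot be told apart for this pair, and the difference within the pair was not tested; the test over all 5 stages is given above.

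Between day 9 and 2i the KLF4 difference changed sign in the same way. The mean was -10.1 points on day 9 and 51.1 in 2i (2 libraries each). A 2i library shares batch EA-3702 with both day 9 libraries and with a day 3 library that defined the early class. The pair of day 9 and 2i was not tested on its own.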

How the results depend on the processing

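The unadjusted exact p of the F over stages for H3K27ac was under 0.05 in all 25 alternatives, from 5.77e-05 to 0.0417. With the replicate block, possible in batch DG-3458 alone, F was 834 (exact p = 0.0417, the smallest this block allows, and not adjusted over the 6 tests), also with the day 6 numbers exchanged as the peak names have them, an alternative chosen after seeing the data. The KLF4 slope was 25.4 to 36.7 points per step under 16 alternatives, and without either day 9 library it was 33.6 with exact p = 0.0667, the smallest that 2, 1 and 2 libraries allow; these p-values are not adjusted. Early-specific, ESC-specific and common regions numbered 4348, 3502 and 3393 with the upper 50% of each list by score, 4198, 2920 and 3194 at a q-value of at most 0.01, and 27564, 19481 and 16795 with any library of a stage. With equal list lengths they numbered 5376, 5687 and 5575, where ESC-specific regions outnumbered early-specific ones. Leaving out 1 library gave 7540 to 18890, 6659 to 16943 and 7739 to 10372: early-specific regions rose to 16680 without EA-3702 and 18890 without DG-4040, ESC-specific ones to 16943 without EA-2697 and 8854 without EA-2643. The percentages near a start were 15.8, 21.2 and 51.3 with the upper 50%, 14.5, 19.4 and 51.3 at the q-value limit, 16.3, 22.1 and 49.4 with any library, and 8.93, 13.2 and 49.2 in a 1 kb window. They were 14.5 and 20.5 for the stage-specific classes with equal list lengths, and 20.7 (ESC-specific) and 51.6 (common) with 200 bp peaks. Chosen after seeing the data, both ends of every gene gave 15.1 and 21.0 for the stage-specific classes, and promoter-table genes alone 9.70, 13.4 and 43.4. Leaving out 1 library gave 13.2 to 21.3 (14.0 without EA-2697, 18.9 without DG-4040), 20.2 to 28.1 (21.5 without EA-2697, 21.4 without EA-2643) and 50.2 to 53.1; the order of the 3 classes was the same in each of these settings. Counting regions within 2.5 kb of the gene body changed 12 of 30 list counts by over 1.5 times: early-specific to 5 pluripotency, 3 AP-1 and 0 extra-embryonic genes, ESC-specific to 1 mesenchymal, 2 AP-1, 8 KLF, 2 cell cycle, 4 TGF-beta, 9 WNT, 3 extra-embryonic and 1 housekeeping genes, and common to 1 extra-embryonic gene.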

Other observations

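The 19 ESC-specific regions given to Gas8, which encodes a subunit of the axonemal dynein regulatory complex, lay beside the gene and not inside it. They belong to a stretch of 58.0 kb (chr8:123537263-123595236) with 68 merged regions, 19 ESC-specific, 10 common, 39 of no class and 0 early-specific. KLF4 peaks in it numbered 20 and 38 in the day 3 libraries, 50 and 67 in ESCs, 23 and 19 on day 6, 1 and 7 on day 9 and 50 and 67 in 2i. H3K27ac peaks numbered 0 in 11 of the 12 libraries and 1 in an ESC library. ESC-specific regions of this stretch had folds of at most 6.14 (EA-2697) and 4.00 (EA-2643). Of the 5 genes with 8 or more ESC-specific regions, Gas8 and Igsf21 had none that was acetylated in both ESC libraries, and the 8 of Igsf21 spread over 257 kb.

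ATTTGCAT, the octamer bound by OCT factors, was in 5.13% of the promoter windows at early-specific regions, 1.21% at ESC-specific and 1.66% at common regions, against 1.75% of all windows. Counted by gene this was 17 of 349 (4.87%) against 1.99% of all genes. The 17 include Egr2, Tnc and the histone gene H2ac6, and these names were chosen after their values were seen.

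Regions of each stage-specific class had a neighbour of the same class within 10 kb about as often as common regions did (21.1% of early-specific, 23.3% of ESC-specific and 21.7% of common regions). On the X chromosome lay 1.70% of early-specific, 1.61% of ESC-specific and 0.843% of common regions, against 1.75% of all merged regions.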
